A study of Mus musculus with 24 samples.

Results

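A set of 10 genes of platelet-derived growth factor (PDGF) signalling and of the contractile program of myofibroblasts was followed in bulk RNA sequencing of mouse kidney. They are the ligand genes Pdgfa and Pdgfb, the receptor genes Pdgfra and Pdgfrb, the contractile genes Acta2, Tagln, Myh11 and Cnn1, and the matricellular genes Ccn1 (formerly Cyr61) and Ccn2 (formerly Ctgf). All 10 of 10 were found among the 35413 genes of the files by summing estimated reads over each gene's transcripts, and all 10 passed the filter on low counts in both experiments. The rule that defines the set lists genes by name and uses no measured value, but the members were chosen with earlier results of these data known.

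The kidneys came from 2 experiments with a diet containing adenine, a purine whose oxidised product precipitates in the renal tubules, and the design asked how loss or blockade of ENPP1, an enzyme that cleaves extracellular ATP, alters the kidney under that diet. In the knockout experiment, 4 libraries came from chow-fed control mice, 6 from wild-type mice without the CAG-ERCre transgene after 14 days on adenine, and 6 from mice with a floxed ENPP1 gene (ENPP1 fl/fl) and CAG-ERCre after 14 days on adenine. In the antibody experiment, 4 libraries came from mice on adenine injected with the hENPP1 monoclonal antibody and 4 from mice on adenine injected with control IgG, both at 50 mg/kg 2 times a week until day 14. CAG is a broadly active promoter and ERCre a recombinase that tamoxifen switches on, so the design does not aim the deletion at 1 cell type, and the presence of Cre cannot be told apart from the knockout label. The sources used here do not give the genotype of the chow group or the strain, sex and age of the animals. Nor do they say whether the Cre-negative mice received tamoxifen, or whether a human ENPP1 gene was present in the antibody-treated and IgG-treated mice. The labels number the libraries of a group without naming animals, so p-values measure the spread between these libraries.

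PDGF ligands are secreted dimers that activate 2 receptor tyrosine kinases: the product of Pdgfa binds the alpha receptor, and that of Pdgfb binds both the alpha and the beta receptor. In the kidney the receptors mark interstitial fibroblasts, pericytes and mesangial cells, and their ligands are made by tubular, endothelial, mesangial and infiltrating cells. Activated fibroblasts and pericytes can become myofibroblasts, which make collagen and take on smooth muscle proteins, a program run by serum response factor (SRF) with myocardin-related coactivators at CArG boxes in the promoters of its target genes. Ccn1 and Ccn2 encode secreted proteins bound to the matrix and are widely used readouts of the coactivators YAP and TAZ, which act through TEAD factors.

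Promoters of 5 of the 10 genes were present in the RefSeq table of the build GRCm38.p6. Those of Acta2 and Ccn1 are shown as the 250 bases before the start site because they hold the motifs through which these regulators are known to act. Capitals mark the CArG boxes (1 base other than A or T was allowed in the core of 6) and the TEAD motif CATTCC or its reverse complement GGAATG. The window of Acta2 lies at chr19:34255374-34255623 on the minus strand, and that of Ccn1 at chr3:145649986-145650235 on the minus strand.
Acta2: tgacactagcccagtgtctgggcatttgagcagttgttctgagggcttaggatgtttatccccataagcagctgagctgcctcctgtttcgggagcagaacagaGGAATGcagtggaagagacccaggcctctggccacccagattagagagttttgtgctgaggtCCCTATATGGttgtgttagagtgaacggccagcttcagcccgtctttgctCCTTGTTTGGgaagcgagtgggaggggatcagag
Ccn1: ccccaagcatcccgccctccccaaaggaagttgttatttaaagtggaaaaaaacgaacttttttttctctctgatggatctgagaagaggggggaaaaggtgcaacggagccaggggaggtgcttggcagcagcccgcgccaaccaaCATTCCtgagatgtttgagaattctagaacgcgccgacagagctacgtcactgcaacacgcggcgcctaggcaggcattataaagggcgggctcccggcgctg
The Acta2 window held 2 CArG boxes, which begin 84 and 34 bases before the start site, and 1 TEAD motif at 146 bases. Each of the 2 boxes has 1 base other than A or T in its core, so both count only through that allowance. The Ccn1 window held 1 TEAD motif at 103 bases and no CArG box. Of 32851 mouse promoter windows of the same length searched on both strands, 8.59% held a CArG box under this rule and 12.6% the TEAD motif. The windows of Pdgfra, Pdgfa and Cnn1 held neither motif, which says only that these letters are not in these windows.

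Assigned reads ran from 21049722 to 28209908 per library in the knockout experiment, and the antibody libraries held between 43880608 and 50557594. Enpp1 itself was not lower in the libraries labelled knockout, at 22.7 ± 1.19 CPM (SD, n = 6) against 21.99 ± 1.53 in wild type on adenine (n = 6; log2 change 0.05, adjusted p = 0.466, edgeR). The deleted exons are not given, so reads from the rest of the gene can hide a deletion, and the group is called "labelled knockout" throughout. CPM, the reads of a gene relative to the total of its library, is scaled within each experiment by TMM, which sets the bulk of genes level between libraries, and levels are not compared across experiments. This scaling matters for directions: the TMM factors were 0.717 to 0.741 in chow and 1.06 to 1.24 in wild type on adenine, so that without them the median of all genes moved from 0.07 to 0.72 on the log2 scale for wild-type adenine against chow, from -0.02 to -0.10 for labelled knockout against wild type, and from -0.04 to -0.29 for antibody against IgG. Directions below are on the TMM scale, and those of the 10 genes and of the further pathway genes given below that turn with library size alone are named.

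**Figure D1:**
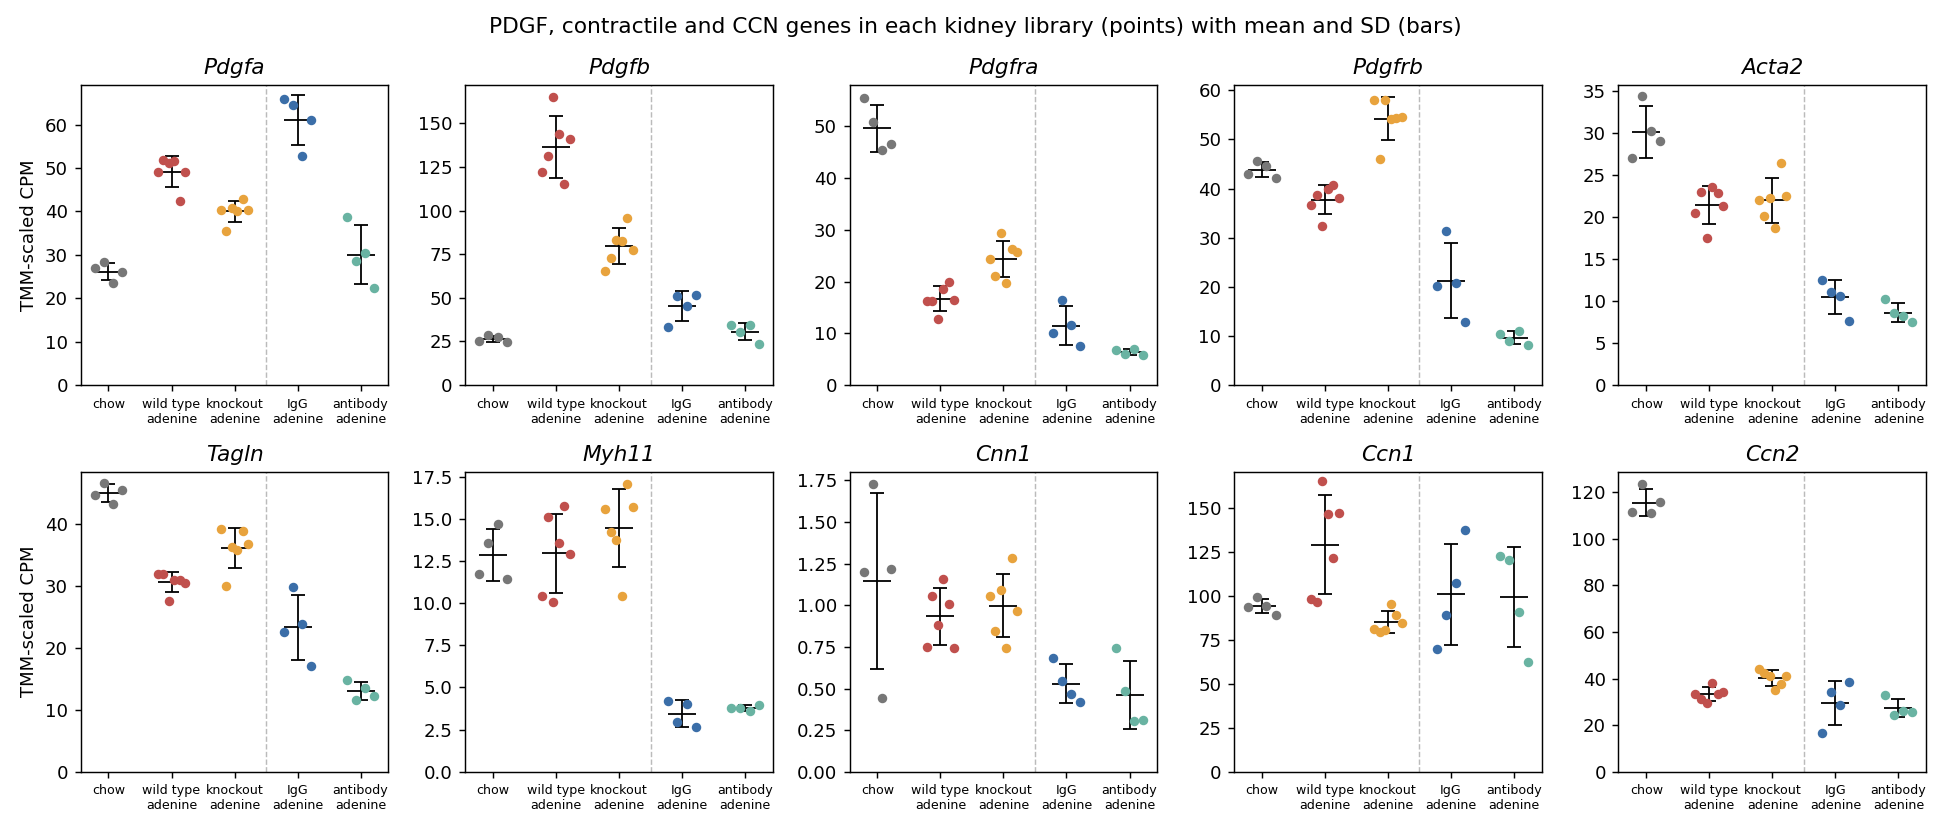
Level of each of the 10 genes (TMM-scaled CPM, linear axes starting at 0) in each library, with group means and SD as bars; the dashed line separates the experiments, which were scaled apart. Pdgfb and Pdgfa stand higher in all wild-type adenine libraries than in all chow libraries, and Pdgfra and Ccn2 lower; the lower levels of Acta2, Tagln and Pdgfrb in those libraries hold on the TMM scale and turn with library size alone.

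On the adenine diet, wild-type kidneys held more RNA of both PDGF ligands and less of the alpha receptor. Pdgfb was 5.13-fold higher than in chow and Pdgfa 1.88-fold higher, whereas Pdgfra was 2.97-fold lower. The 2 matricellular genes went opposite ways, with Ccn1 1.37-fold higher and Ccn2 3.46-fold lower. Of the 10 genes, 3 rose, 5 fell and 2 did not pass the threshold (edgeR quasi-likelihood test, Benjamini-Hochberg adjusted p under 0.05), where 84.9% of all 16959 genes tested passed in either direction, 44.0% higher and 40.9% lower. Scaled by library size alone, 5 rose and 2 fell. The share of members called is therefore near that of all genes, and the sizes and directions carry the description. In bulk tissue, fewer cells of a type and less RNA per cell cannot be told apart.

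Pdgfb, whose product binds both receptors, stood at 25.5, 28.6, 27.6 and 24.7 CPM in the 4 chow libraries. In the 6 wild-type adenine libraries it ran from 115.3 to 164.9 CPM with a median of 136.1. No adenine library came near a chow library, and the log2 change was 2.36 (SE 0.11, adjusted p = 2.48e-13, edgeR). Pdgfa, whose product binds the alpha receptor, stood at 27.0, 28.2, 23.5 and 25.95 CPM in chow. On adenine it ran from 42.4 to 51.7 CPM with a median of 50.1, again above all chow libraries, with a log2 change of 0.91 (SE 0.07, adjusted p = 1.71e-10, edgeR). Of the remaining ligand genes, Pdgfc fell by 1.20 on the log2 scale (adjusted p = 3.20e-07, edgeR). Pdgfd, a ligand of the beta receptor, changed by -0.07 (adjusted p = 0.516, edgeR), which turned to 0.58 with library size alone and then passed as higher (adjusted p = 4.52e-05).

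Pdgfra, the alpha receptor, stood at 55.5, 50.9, 45.5 and 46.6 CPM in chow and from 12.7 to 19.9 CPM, median 16.3, in wild type on adenine. The highest adenine library was thus below the lowest chow library, and the log2 change was -1.57 (SE 0.11, adjusted p = 8.09e-11, edgeR). Pdgfrb, the beta receptor, stood at 43.0, 45.6, 44.6 and 42.2 CPM in chow and from 32.3 to 40.8 CPM, median 38.4, on adenine. Its log2 change of -0.22 (SE 0.07, adjusted p = 0.00583, edgeR) turned to 0.43 with library size alone, where it passed as higher (adjusted p = 2.70e-05, edgeR), and to 0.01 with upper-quartile scaling. Relative to the median of all genes, Pdgfra stood at -1.64 to -1.65 and Pdgfrb at -0.29 under the 4 scalings, so both lay below the median gene, Pdgfra by far the more. A change of scaling moves all genes by nearly the same amount. This distance therefore stays the same by arithmetic and is no check on the direction against chow.

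Acta2 encodes smooth muscle alpha-actin, the usual marker of myofibroblasts. It stood at 27.0, 34.3, 30.1 and 29.0 CPM in chow and from 17.5 to 23.5 CPM, median 22.1, in wild type on adenine, with no overlap on the TMM scale (log2 change -0.49, SE 0.09, adjusted p = 7.93e-05, edgeR). Tagln, the actin-binding protein transgelin, stood at 44.6, 46.6, 43.1 and 45.5 CPM in chow and from 27.5 to 31.9 CPM, median 30.9, on adenine (log2 change -0.55, SE 0.06, adjusted p = 1.14e-07, edgeR). With library size alone both were slightly higher on adenine and did not pass the threshold (0.16, adjusted p = 0.147, and 0.10, adjusted p = 0.272, edgeR). Relative to the median of all genes, Acta2 stood at -0.56 and Tagln at -0.63 under each of 4 scalings, to 2 decimals. That sameness again follows from the arithmetic and does not settle the direction of either gene. Myh11, the smooth muscle myosin heavy chain, ran from 11.4 to 14.7 CPM in chow and from 10.05 to 15.7 on adenine, so the groups overlapped throughout (log2 change 0.01, 95% interval -0.28 to 0.30). It was 0.66 higher with library size alone (adjusted p = 1.82e-04, edgeR). Cnn1, calponin, was the weakest of the genes, with 9 to 33 reads per library in these groups, and its log2 change of -0.29 (SE 0.27, adjusted p = 0.306, edgeR) passed only without chow replicate 3 (-0.54, adjusted p = 0.0281).

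Ccn1 stood at 93.7, 99.1, 94.1 and 89.2 CPM in chow and from 96.6 to 165.3 CPM, median 134.0, in wild type on adenine. The adenine libraries were widely spread and 2 of them, at 96.6 and 97.9 CPM, lay within the chow range (log2 change 0.46, SE 0.12, adjusted p = 0.00205, edgeR). Ccn2 stood at 111.5, 123.5, 111.2 and 115.7 CPM in chow and from 29.3 to 38.2 CPM, median 33.4, on adenine. It was the most tightly measured of the large changes, at -1.79 (SE 0.07, adjusted p = 1.53e-14, edgeR), and it also fell with library size alone, as Pdgfra did, while Pdgfb, Pdgfa and Ccn1 also rose. Counting all members, the CPM ranges of the 2 groups did not overlap for 7 of 10, against 75.2% of all genes. The median log2 change of the 10 was -0.26 and that of all genes 0.07.

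**Figure D2:**
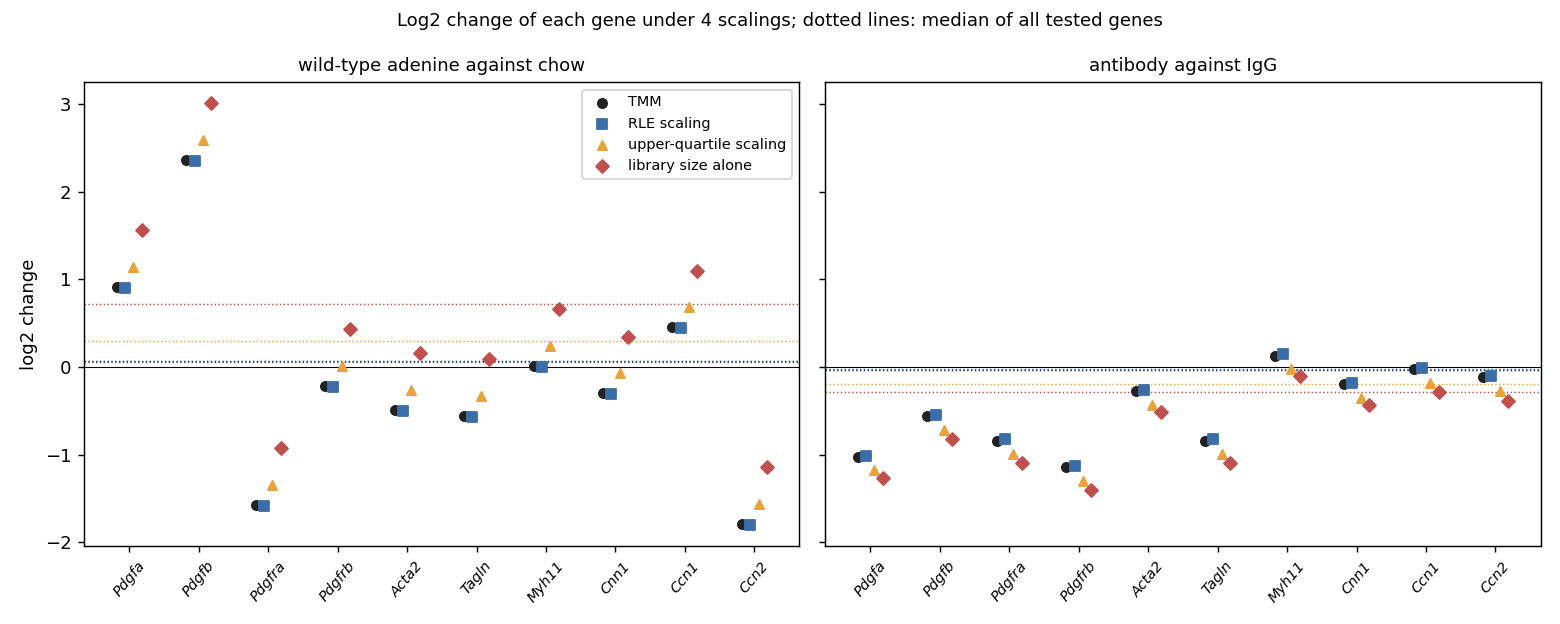
Log2 change of each gene in 2 comparisons under 4 scalings (symbols), with the median of all tested genes under each scaling as a dotted line. TMM and RLE coincide. With library size alone Acta2, Tagln, Pdgfrb and Cnn1 cross 0 in wild-type adenine against chow. The distance of each gene from the median of all genes stays the same by arithmetic, since scaling moves all genes by nearly the same amount.

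Other genes of the same pathways moved in both directions under the diet. Among 25 further PDGF ligand, co-receptor and effector genes, 9 rose and 10 fell, with a median change of -0.04. Src (0.96) and Plcg1 (0.95), a kinase and a phospholipase recruited to active receptors, rose, while the co-receptor Nrp1 (-0.95) and the kinase subunit Pik3ca (-0.83) fell. Of 26 tested smooth muscle and contractile genes, 9 rose and 13 fell, with a median of -0.20. The integrin Itga8 (-3.11) and the myosin light chain Myl9 (-2.39), both abundant in mesangial and smooth muscle cells, fell, while filamin A (Flna, 1.89) and the SRF coactivator Mrtfb (1.29) rose. Srf itself changed by -0.05 (adjusted p = 0.455, edgeR), and Myocd, which encodes myocardin, did not pass the filter on low counts. Of 20 tested genes of the CCN family and of YAP/TAZ and TEAD signalling, 10 rose and 5 fell, with a median of 0.42. Tead3 (1.67), tissue factor (F3, 1.59) and Arhgef17 (1.23) rose, the caveolar gene Cavin2 (-1.86) and Wwtr1, which encodes TAZ (-0.78), fell, and Yap1 changed by -0.01 (adjusted p = 0.809, edgeR). Srf and Yap1 turned to 0.61 and 0.64 with library size alone and passed as higher (adjusted p = 1.04e-07 and 1.28e-07, edgeR). On that scale the counts became 17 higher and 6 lower for the PDGF list, 15 and 8 for the contractile list and 15 and 3 for the CCN list, so that the lean of the PDGF list and that of the contractile list turned. Over all genes, 51.8% of calls were higher under TMM and 75.1% with library size alone.

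Markers of several cell types of the kidney and of blood moved in different directions. Of 16 fibroblast and matrix genes 10 rose and 4 fell, and their summed level went from between 369.4 and 411.3 CPM in chow to between 607.8 and 865.5 CPM in wild type on adenine. The largest rise among them was that of Col1a1, a chain of type I collagen, from 12.4 to 144.6 CPM (log2 change 3.54, adjusted p = 3.97e-14, edgeR). The 4 that fell were Meox1 (-2.36), Col14a1 (-2.26), Dcn (-0.88) and Lum (-0.64). Of 13 tested pericyte and mural cell genes 4 rose and 8 fell, with summed levels of 320.3 to 358.0 CPM in chow and 236.5 to 286.4 on adenine. With library size alone 5 of these mural genes rose and 5 fell, and their summed level turned, from between 233.3 and 265.2 CPM in chow to between 263.7 and 339.6 on adenine. All 14 endothelial genes fell (815.3 to 899.8 CPM in chow, 272.0 to 384.7 on adenine; 1 rose and 10 fell with library size alone), and 10 of 11 macrophage genes rose (195.7 to 214.8 and 440.1 to 647.2 CPM). The 8 proximal tubule genes summed to between 24930 and 27350 CPM in chow and between 1798 and 3618 on adenine. Of 9 podocyte genes 1 rose and 7 fell (666.5 to 693.6 and 184.9 to 243.3 CPM), and all 5 red blood cell genes fell (1072 to 1296 and 12.5 to 35.7 CPM). No marker of these 7 lists was at 0 in every library of a group. The part of these shifts in the changes of the 10 genes was not tested.

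**Figure D3:**
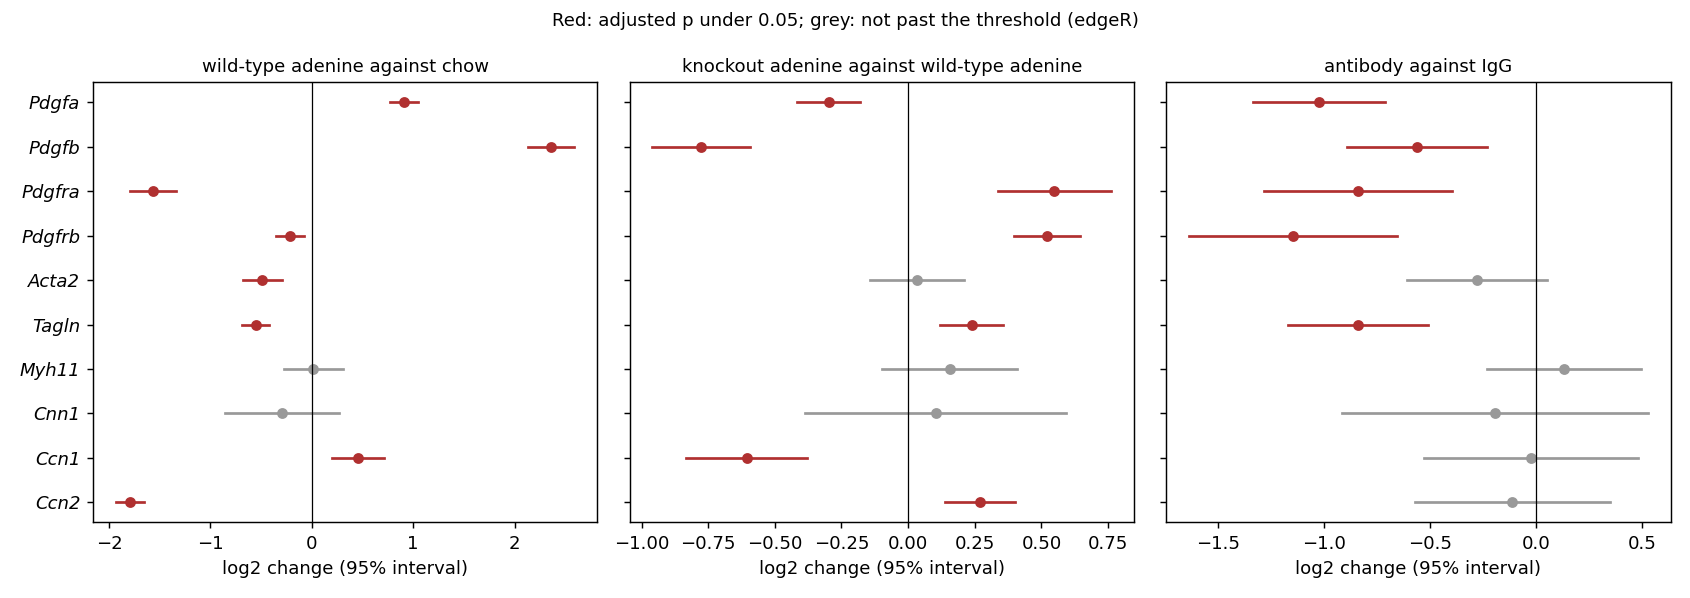
Log2 change of each gene with its 95% interval in 3 comparisons (edgeR), red where the adjusted p was under 0.05 and grey where it was not. The labelled knockout shows 4 genes higher and 3 lower, the antibody 5 lower and none higher; intervals are wider in the antibody experiment. On library size alone, Acta2, Tagln, Pdgfrb and Cnn1 turn in the first panel, Acta2 in the second and Myh11 in the third.

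In the labelled knockout on adenine, both ligands were lower and both receptors higher than in wild type on adenine. Pdgfb was 1.71-fold lower, Pdgfa 1.23-fold lower, Pdgfra 1.46-fold higher and Pdgfrb 1.44-fold higher. Ccn1 was 1.52-fold lower and Ccn2 1.21-fold higher. Tagln was 1.18-fold higher, and the other contractile genes did not pass the threshold. In all, 4 genes rose, 3 fell and 3 did not pass, where 46.4% of all genes tested passed in either direction, 25.1% higher and 21.3% lower. Scaled by library size alone, 3 rose and 3 fell. Over all genes 54.1% of calls were higher under TMM and 37.1% with library size alone, so the lean of all genes turned.

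Pdgfb ran from 65.6 to 96.0 CPM, median 79.9, in the 6 libraries labelled knockout, so that all of them lay between the chow libraries and the wild-type adenine libraries (log2 change against wild type -0.78, SE 0.09, adjusted p = 1.31e-06, edgeR). Pdgfa ran from 35.6 to 42.9 CPM, median 40.3, and its highest labelled knockout library exceeded the lowest wild-type library slightly (-0.30, SE 0.06, adjusted p = 2.89e-04, edgeR). Pdgfra ran from 19.8 to 29.4 CPM, median 25.0, against 12.7 to 19.9 CPM in wild type, so the groups met at their edges (0.55, SE 0.10, adjusted p = 2.38e-04, edgeR). Pdgfrb ran from 46.0 to 58.1 CPM, median 54.5, above all wild-type adenine libraries (0.52, SE 0.06, adjusted p = 1.45e-06, edgeR). Both receptors thus moved up by similar fitted amounts, and their ratio within a library is given further on.

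Tagln ran from 30.0 to 39.1 CPM, median 36.4, in the libraries labelled knockout, and 1 of these 6 libraries lay within the wild-type range (log2 change 0.24, SE 0.06, adjusted p = 0.00209, edgeR). This change was 0.16 with library size alone and missed the threshold (adjusted p = 0.0841, edgeR). Acta2 ran from 18.6 to 26.4 CPM, median 22.1, over nearly the same range as in wild type. Its log2 change was 0.03 with a 95% interval from -0.14 to 0.21, and -0.04 with library size alone. The changes of Myh11 (0.16, 95% interval -0.10 to 0.41) and Cnn1 (0.10, -0.39 to 0.59) also had intervals that included 0.

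Ccn1 ran from 79.2 to 95.5 CPM, median 82.6, in the libraries labelled knockout, all below the lowest wild-type adenine library (log2 change -0.60, SE 0.11, adjusted p = 1.82e-04, edgeR). Ccn2 ran from 35.2 to 44.2 CPM, median 41.0, with overlap (0.27, SE 0.06, adjusted p = 0.00167, edgeR). The ranges of the groups did not overlap for 3 of the 10 genes, Pdgfb, Pdgfrb and Ccn1, against 24.7% of all genes. The median log2 change of the 10 was 0.13 and that of all genes -0.02.

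Of the further PDGF genes, 8 rose and 3 fell of 25 under TMM, but 5 rose and 10 fell with library size alone. Lrp1 (0.42), an endocytic receptor that associates with the beta receptor, the adaptor Gab1 (0.35) and Nrp1 (0.30) rose, and the proteoglycan Cspg4 (NG2, -0.40) fell. Pdgfc rose by 0.38 (adjusted p = 0.0297, edgeR), and Pdgfd changed by -0.19 (adjusted p = 0.0885, edgeR). On library size alone Pdgfc no longer passed (0.28, adjusted p = 0.119, edgeR) and Pdgfd passed as lower (-0.27, adjusted p = 0.0267, edgeR). Of 26 contractile genes 10 rose and 8 fell: Itga8 (1.37), Myl9 (0.74) and desmin (Des, 0.66) rose and Mrtfb (-0.43) fell. Of 20 genes of the CCN and YAP/TAZ list 3 rose and 10 fell, among them Tead1 (-0.71), F3 (-0.68) and Yap1 (-0.17), while Cavin2 (0.72) and Vgll3 (0.94) rose. Srf changed by 0.00 and Wwtr1 by 0.06, and neither passed (adjusted p = 0.999 and 0.307, edgeR); library size alone put them at -0.08 and -0.03.

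Among the cell markers, 4 of 16 fibroblast genes rose and 1 fell, with summed levels of 681.5 to 999.1 CPM in the labelled knockout against 607.8 to 865.5 in wild type. Col1a1 changed by 0.15 and did not pass (adjusted p = 0.247, edgeR). Pericyte and mural genes rose in 8 and fell in 3 of 13 (255.6 to 356.4 against 236.5 to 286.4 CPM). Endothelial genes rose in 12 of 14 (388.4 to 570.6 against 272.0 to 384.7 CPM; 8 with library size alone). Podocyte genes rose in 9 of 9 (287.2 to 519.5 against 184.9 to 243.3 CPM), and red blood cell genes rose in 5 of 5 (204.3 to 491.8 against 12.5 to 35.7 CPM). Macrophage genes fell in 2 of 11 and rose in none. The 8 proximal tubule genes all rose (5573 to 9836 against 1798 to 3618 CPM). The part of these shifts in the result was not tested.

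Against chow, the labelled knockout on adenine kept part of the diet's pattern. This comparison shares its chow libraries and its knockout libraries with the comparisons above. Pdgfb was 3.00-fold and Pdgfa 1.53-fold higher than in chow, and Pdgfrb was 1.24-fold higher. For Pdgfrb this is opposite to wild type on adenine, where it was lower than in chow under TMM (log2 change -0.22) and higher with library size alone. Ccn2 was 2.87-fold, Pdgfra 2.03-fold, Acta2 1.37-fold and Tagln 1.24-fold lower. The log2 changes were 1.58, 0.61 and 0.30 for the first 3 and -1.52, -1.02, -0.45 and -0.32 for the last 4, with adjusted p from 3.44e-13 to 3.92e-04 (edgeR). Ccn1, Cnn1 and Myh11 did not pass. With library size alone Tagln (0.25), Acta2 (0.12), Ccn1 (0.42) and Cnn1 (0.38) turned, and Myh11 (0.74), Tagln and Ccn1 passed as higher. Thus 7 of 10 genes passed, 3 higher and 4 lower, where 80.1% of all genes did (40.2% higher and 39.9% lower; with library size alone 6 members were higher and 2 lower), and 7 did not overlap, where 69.7% of all genes did not. Over all genes 50.2% of calls were higher under TMM and 78.5% with library size alone.

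In the antibody experiment no gene of the group rose, and both ligands, both receptors and Tagln fell. Pdgfrb was 2.21-fold lower with the antibody than with IgG, Pdgfa 2.04-fold, Pdgfra 1.79-fold, Tagln 1.79-fold and Pdgfb 1.48-fold. Ccn1, Ccn2, Myh11, Cnn1 and Acta2 did not pass the threshold. Of the 10 genes 5 passed, where 55.3% of all genes did, and all 5 were lower, where 27.2% of all genes were called higher and 28.0% lower. With library size alone the same 5 genes and Acta2 were called lower (-0.52, adjusted p = 0.00999, edgeR).

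Pdgfa stood at 65.8, 64.4, 52.8 and 61.2 CPM in the 4 IgG libraries and at 38.8, 28.5, 30.3 and 22.3 CPM in the 4 antibody libraries. Each antibody library lay below each IgG library (log2 change -1.03, SE 0.14, adjusted p = 2.09e-04, edgeR). Pdgfb stood at 33.3, 51.2, 45.2 and 51.4 CPM with IgG and at 34.2, 30.1, 34.5 and 23.8 CPM with the antibody. IgG replicate 1 lay among the antibody libraries, and the change was -0.56 (SE 0.15, adjusted p = 0.00822, edgeR). Pdgfc changed by 0.15 (adjusted p = 0.253, edgeR; -0.11 with library size alone), and Pdgfd fell by 0.26 on the log2 scale (adjusted p = 0.0380, edgeR).

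Pdgfra stood at 10.1, 16.5, 11.6 and 7.54 CPM with IgG and at 6.87, 6.01, 6.92 and 5.79 CPM with the antibody (log2 change -0.84, SE 0.20, adjusted p = 0.00469, edgeR). Pdgfrb stood at 20.1, 31.4, 20.7 and 12.9 CPM with IgG and at 10.3, 8.89, 11.1 and 8.14 CPM with the antibody (-1.15, SE 0.22, adjusted p = 0.00143, edgeR). Both receptors were high in IgG replicate 2 and low in IgG replicate 4, and the antibody libraries were narrow and lay below all IgG libraries. Tagln ranked the IgG libraries in the same way, at 22.6, 29.8, 23.8 and 17.1 CPM, and stood at 14.8, 11.5, 13.6 and 12.2 CPM with the antibody (-0.84, SE 0.15, adjusted p = 8.55e-04, edgeR).

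Acta2 stood at 12.5, 11.1, 10.5 and 7.66 CPM with IgG and at 10.2, 8.54, 8.23 and 7.47 CPM with the antibody. The groups overlapped through IgG replicate 4, and the change of -0.28 (SE 0.15, adjusted p = 0.136, edgeR) became -0.40 and passed without that library (adjusted p = 0.0191). With upper-quartile scaling Acta2 also passed as lower (-0.43, adjusted p = 0.0277, edgeR). Myh11 ran from 2.64 to 4.22 CPM with IgG and from 3.59 to 3.98 with the antibody, a change of 0.13 with a 95% interval from -0.24 to 0.49. Cnn1 had 12 to 32 reads per library, and its interval from -0.91 to 0.52 leaves changes of either sign.

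Ccn1 stood at 69.8, 89.3, 107.1 and 137.3 CPM with IgG and at 122.7, 120.5, 91.0 and 62.4 CPM with the antibody. The means were 100.9 ± 28.7 CPM with IgG and 99.1 ± 28.4 with the antibody (SD, n = 4 each). The spread within each group was thus far larger than the difference between the means (log2 change -0.03, 95% interval -0.53 to 0.48). Ccn2 stood at 16.7, 34.4, 28.5 and 38.5 CPM with IgG and at 33.1, 24.3, 26.1 and 25.9 CPM with the antibody (-0.11, 95% interval -0.57 to 0.35). For 4 of the 10 genes, Pdgfra, Pdgfrb, Pdgfa and Tagln, the ranges did not overlap, against 50.6% of all genes. The median log2 change of the 10 was -0.42 and that of all genes -0.04.

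Of the further PDGF genes 6 rose and 7 fell of 25 with the antibody (2 and 11 with library size alone). Gab1 (0.63) and the phosphatase gene Ptpn11 (0.42) rose, while Plat (-0.76), the protease that activates the Pdgfc product, and Cspg4 (-0.66) fell. Of 26 contractile genes 2 rose and 11 fell, with a median of -0.32 (none rose and 16 fell with library size alone). Des (-1.09), Cnn2 (-0.93), caldesmon (Cald1, -0.92) and the myosin light chain kinase Mylk (-0.75) fell, while Srf rose by 0.48 (adjusted p = 0.0149, edgeR). Of 19 genes of the CCN and YAP/TAZ list 5 rose and 9 fell (1 and 10 with library size alone). Tead2 (-1.48), the CCN family member Ccn4 (-1.37), the receptor kinase Axl (-1.05) and Amotl1 (-0.99) fell, Wwtr1 rose by 0.31 (adjusted p = 0.00666, edgeR) and Yap1 changed by 0.07 (adjusted p = 0.415, edgeR). On library size alone Yap1 turned to -0.18 (adjusted p = 0.146), and the increases of Ptpn11 (0.17, adjusted p = 0.136), Srf (0.23, adjusted p = 0.263) and Wwtr1 (0.07, adjusted p = 0.519) no longer passed (edgeR).

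Markers of fibroblasts and macrophages were lower together with these genes. Fibroblast and matrix genes fell in 13 of 16 and rose in none, with summed levels of 202.8 to 302.0 CPM with the antibody against 507.1 to 864.0 with IgG, and Col1a1 fell by 1.68 on the log2 scale (adjusted p = 1.80e-04, edgeR). All 11 macrophage genes fell (215.8 to 321.9 against 474.6 to 891.7 CPM). Pericyte and mural genes fell in 6 and rose in 3 of 12 (124.7 to 137.9 against 140.4 to 162.9 CPM, with Vtn at 0 in some IgG libraries), and endothelial genes fell in 3 of 14 (8 with library size alone). Podocyte genes rose in 3 and fell in 2 of 9 (140.6 to 186.7 against 114.1 to 138.0 CPM; 2 and 3 with library size alone). The 8 proximal tubule genes rose (13010 to 20790 against 3259 to 6786 CPM). The part of these shifts in the result was not tested. Over all genes 49.3% of calls were higher under TMM and 22.2% with library size alone.

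The effect of the knockout label and that of the antibody differed for 4 of the 10 genes when the difference itself was tested over the 20 adenine libraries, where 37.9% of all 17113 genes tested passed, 16.3% higher and 21.6% lower. The difference, knockout effect minus antibody effect, was 1.59 for Pdgfrb (SE 0.21, adjusted p = 1.51e-05), 1.31 for Pdgfra (SE 0.22, adjusted p = 1.45e-04), 1.00 for Tagln (SE 0.15, adjusted p = 4.07e-05) and 0.65 for Pdgfa (SE 0.14, adjusted p = 0.00108; all edgeR). Both receptors and Tagln were higher in the labelled knockout and lower with the antibody, each against its own control. Pdgfa was lower in both, and more so with the antibody. For Pdgfb, lower in both experiments, the difference was -0.29 with a 95% interval from -0.66 to 0.09. Equal effects, a larger effect of the knockout label and a slightly larger effect of the antibody all lie within it. For Ccn1 the difference of -0.65 missed the threshold (adjusted p = 0.0569) and passed without wild-type replicate 1 (-0.72, adjusted p = 0.0369), wild-type replicate 2 (-0.72, adjusted p = 0.0360), antibody replicate 4 (-0.82, adjusted p = 0.0134) or IgG replicate 4 (-0.85, adjusted p = 0.0140; all edgeR). On library size alone the difference for Acta2 also passed (0.48, adjusted p = 0.0381, edgeR). For Ccn2 the difference passed only without IgG replicate 1 (0.51, adjusted p = 0.00662, edgeR). The experiments were sequenced to different depths and their adenine controls are different mice, so experiment and intervention cannot be told apart.

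**Figure D4:**
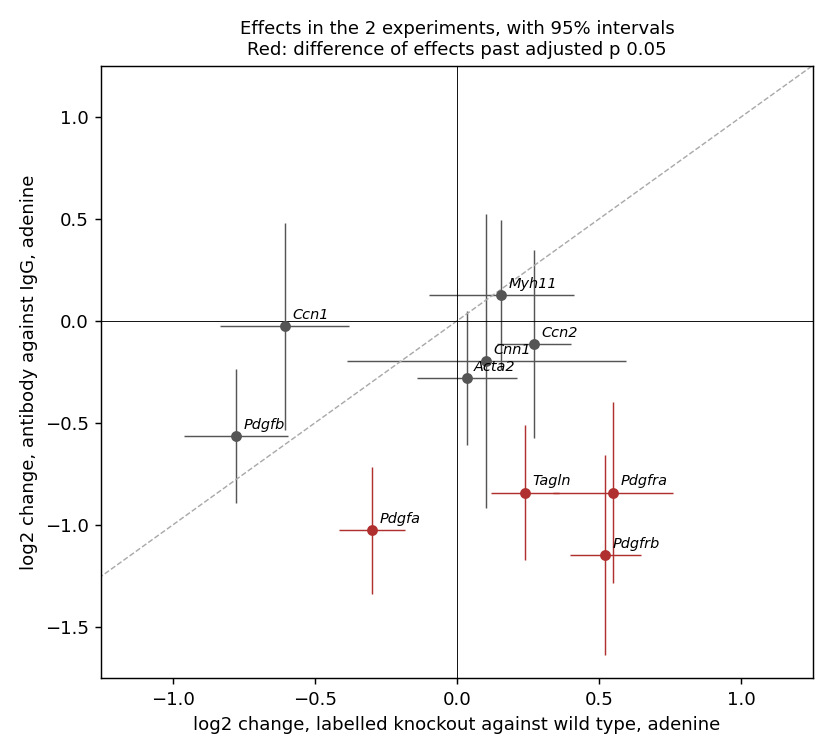
Log2 change of each gene in the labelled knockout against wild type (x) and with the antibody against IgG (y), both on adenine, with 95% intervals; the dashed line marks equal effects and red marks a tested difference past adjusted p 0.05. Pdgfra, Pdgfrb and Tagln lie right of 0 and below 0, and Pdgfb lies low on both axes; with library size alone Acta2 moves to the left of 0 and Myh11 below 0.

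Ratios of 2 genes within a library do not depend on how libraries are scaled. They were formed from TPM, which accounts for transcript length, and since the pairs were chosen after the values had been seen they are given as descriptions. Exact permutation tests over libraries were run on these ratios, but for the same reason their p-values are not printed. The ratio of Pdgfb to its receptor Pdgfrb was 1.15 to 1.21 in chow, 5.71 to 10.7 in wild type on adenine and 2.28 to 3.72 in the labelled knockout, 3 ranges without overlap. The ratio of Pdgfa to Pdgfra was 1.98 to 2.25, 7.64 to 15.2 and 5.37 to 7.33 in the same order. Both ligand to receptor ratios were thus highest in wild type on adenine and lowest in chow. In the antibody experiment they overlapped: Pdgfb to Pdgfrb was 3.26 to 7.93 with IgG and 5.81 to 6.75 with the antibody, and Pdgfa to Pdgfra was 13.9 to 28.5 and 14.99 to 20.9.

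The ratio of the beta to the alpha receptor was 0.924 to 1.12 in chow, 2.07 to 2.78 in wild type on adenine and 2.08 to 2.80 in the labelled knockout. The shift towards Pdgfrb under the diet was therefore as large in the libraries labelled knockout, whose ratio spanned nearly the same range as in wild type. With IgG it was 1.79 to 2.39 and with the antibody 1.69 to 1.85. The ratio of Ccn1 to Ccn2 was 0.937 to 1.02 in chow, 3.54 to 6.76 in wild type on adenine, 2.19 to 3.13 in the labelled knockout, 3.17 to 5.15 with IgG and 2.94 to 6.02 with the antibody. The ratio of Tagln to Acta2 was 1.85 to 2.21 in chow and 1.83 to 2.17 in wild type on adenine, so the ranges of these 2 groups overlapped almost entirely. In the labelled knockout it was 2.06 to 2.69, with a median of 2.27 above all libraries of both. It was 2.43 to 3.56 with IgG and 1.82 to 2.00 with the antibody.

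**Figure D5:**
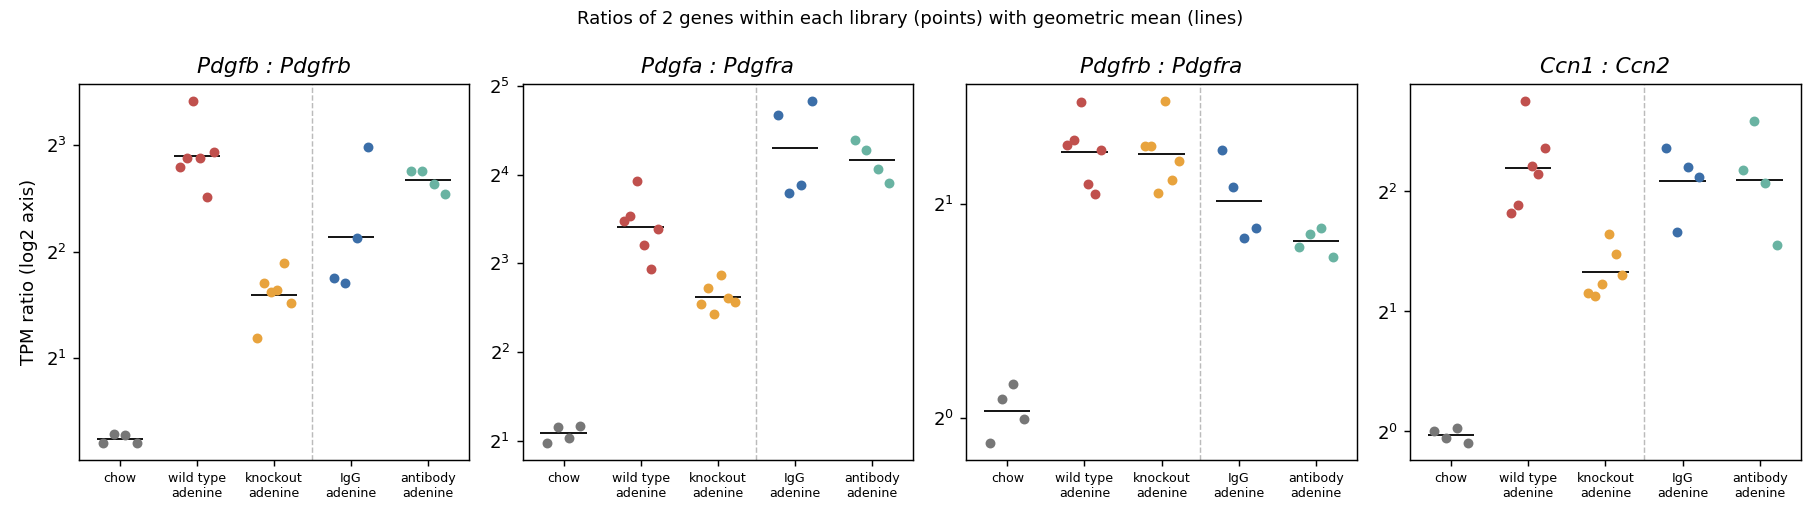
Ratio of the TPM of 2 genes within each library (points, log2 axis) with the geometric mean of the group (line); the dashed line separates the experiments. In the knockout experiment the ligand to receptor ratios of the 3 groups do not overlap, while the ratio of Pdgfrb to Pdgfra is as high in the labelled knockout as in wild type on adenine.

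Per length, the order of the genes changed with the diet. In chow the most abundant were Ccn2 (33.3 ± 2.28 TPM, SD, n = 4) and Ccn1 (32.6 ± 1.93), whose ranges overlapped, followed by Tagln (21 ± 0.96), Pdgfa (10.99 ± 1.07), Acta2 (10.4 ± 1.08), Pdgfb (6.24 ± 0.42), Pdgfrb (5.28 ± 0.25), Pdgfra (5.18 ± 0.49), Myh11 (1.27 ± 0.13) and Cnn1 (0.39 ± 0.20). Pdgfa and Acta2 overlapped, as did the 2 receptors. In wild type on adenine Ccn1 (81.0 ± 13.5 TPM, n = 6) and Pdgfb (62.2 ± 8.44) led with overlapping ranges, followed by Pdgfa (37.3 ± 4.56) and Tagln (26.9 ± 3.52), and Ccn2 (17.5 ± 1.63) came next. In the labelled knockout Ccn1 (50.4 ± 4.21, n = 6) stood alone at the top, and Pdgfb (33.9 ± 6.02) overlapped Tagln (29.9 ± 2.90), which in turn overlapped Pdgfa (29.1 ± 2.78). With IgG the mean of Ccn1 was highest (55.0 ± 19.0, n = 4) but its range overlapped that of Pdgfa (36.8 ± 5.28), which exceeded Ccn1 in IgG replicate 1 (32.4 against 30.3 TPM). With the antibody Ccn1 (46.8 ± 14.2, n = 4) lay above Pdgfa (16.01 ± 3.65) without overlap. Acta2 stood at 13.6 ± 1.76 TPM in wild type on adenine, above its chow level on this scale (10.4 ± 1.08), which like library size alone applies no composition scaling.

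The transcripts counted for the alpha receptor also shifted. Transcripts with the complete coding sequence of 1089 codons made up 85.4% to 94.2% of Pdgfra TPM in chow, 68.7% to 77.3% in wild type on adenine and 72.1% to 84.2% in the labelled knockout. The larger shift was between the 2 transcripts that share this sequence. The first took 70.6% to 87.6% in chow and 28.6% to 57.0% in wild type on adenine, and the second 0% to 17.55% and 13.2% to 40.1%. The most abundant shorter coding sequence, of 790 codons, took 6.80% ± 1.17 in chow (SD, n = 4) and 18.4% ± 2.27 in wild type on adenine (n = 6), where it rested on 35 to 79 estimated reads per library. Short transcripts of 88 and 139 codons took a further 5.16% and 3.25% in wild type on adenine, on means of only 1.01 and 1.10 estimated reads. TPM weights such short transcripts more than reads do, so these shares overstate the reads outside the complete form. With IgG the complete form took 74.6% to 92.1% and with the antibody 89.7% to 93.5%. For Pdgfa, the longer coding form of 211 codons took 49.5% to 57.5% in chow and 38.5% to 44.9% in wild type on adenine, and the form of 196 codons took most of the rest. The longer form took 40.7% to 48.4% in the labelled knockout, 42.9% to 48.1% with IgG and 43.8% to 50.7% with the antibody. For Ccn2, the transcript with the complete coding sequence of 348 codons took 89.8% to 92.5% in chow and 63.6% to 81.5% in wild type on adenine. Its share was 76.8% to 90.7% in the labelled knockout, 53.0% to 75.3% with IgG and 75.5% to 88.9% with the antibody, and the range of the labelled knockout overlapped that of wild type. These shares were chosen after their values had been seen and are descriptions, and the split of reads between overlapping transcripts is the estimate of the authors' quantification.

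Within groups, libraries of the knockout experiment that were high in one receptor tended to be high in the other and in contractile genes. Over the 16 libraries, after removing group means from log2 CPM, Pearson's r was 0.72 between Pdgfra and Pdgfrb, 0.79 between Pdgfrb and Tagln, 0.81 between Acta2 and Myh11 and 0.66 between Pdgfra and Acta2. Other pairs of a receptor and a contractile gene were lower, down to 0.24 between Pdgfrb and Cnn1, and Tagln and Myh11 reached 0.31. The ligands stood apart from the receptors, with r of -0.23 between Pdgfb and Pdgfrb and 0.06 between Pdgfa and Pdgfra, and Pdgfb went with Ccn1 (0.63). The ligands were not all apart from the contractile genes. Pdgfa stood at 0.59 with Cnn1 and 0.48 with Tagln, but at 0.20 with Acta2 and -0.18 with Myh11. Candidates were the 12106 genes whose mean level reached 5 CPM. The pattern most like that of Pdgfra was that of Emcn (0.94), an endothelial gene, nearly tied with AU021092 and Cldn15 (0.93 each). That of Ccn2 was most like Ehd3 (0.91) and Flt1 (0.90), both endothelial, followed by Fabp4 (0.86). Tagln was most like the collagen gene Col1a2 (0.86), nearly tied with Sim2 (0.86) and Fbln7 (0.85). Pdgfb was most like Rhog (0.91), Axl (0.89) and Icam1 (0.89), Pdgfrb like Flywch1 (0.94), Pdgfa like Chid1 (0.90) and Ccn1 like Timd2 (0.95). These values describe 16 libraries that share their scaling, their experiment and their sequencing depth range.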

How the data were processed

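Bulk RNA was measured in 24 mouse kidney libraries, made with a strand-specific kit, per the labels' protocols, from 400 ng of RNA each. Per the submitters' processing notes, Salmon and the build GRCm39 were used, with FastQC, DESeq and DESeq2 also named. Their versions and options were not given in the sources used here. Deposited by the authors were expected counts per transcript (estimated reads, not normalized) and TPM, which Salmon scales by effective length, per the file headers. The effective lengths entered only an offset in an alternative setting.

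Transcripts were joined to genes by identifier through GENCODE M21 (GRCm38), which matched 115636 of 116755 (99.0%); unmatched transcripts held 0.45% to 0.57% of reads and were left out. Estimated counts were summed per gene and rounded. Coordinates are printed only for the RefSeq promoters. Genes were tested with edgeR 4.0.16 (R 4.3.3; quasi-likelihood) after filterByExpr, TMM scaling and Benjamini-Hochberg adjustment over all genes tested, two-sided, called at 0.05, without covariates. One fit held all 16 knockout-experiment libraries, the 8 of the antibody experiment had their own, and the 20 adenine libraries gave the difference of effects. The code was tested on simulated data in which few genes changed, equally up and down, so that run did not test the scaling. Intervals are 95%. Alternatives were RLE, upper-quartile and no composition scaling, DESeq2 1.42.0, limma 3.58.1 (voom), no filter, a length offset, the replicate number as a block, other libraries in the fit, and leaving out each library.

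The members and gene lists were chosen with earlier results of these data known. All 10 members are named in each comparison; of the further lists, the 4 genes with the smallest p in each of 3 comparisons are named, with Pdgfc, Pdgfd, Myocd, Srf, Yap1 and Wwtr1. Col1a1 and the 4 fibroblast genes that fell under the diet were chosen for mention after their values were seen. Likeness between genes was ranked by Pearson's r on log2 of CPM plus 0.5, and the 1 to 3 most like genes of 7 members are given.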

Additional observations from a re-analysis of the deposited data

Results flagged for a closer look

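Single libraries stood apart at the low end of 5 of 50 groups examined, measured by the gap to the next library as a share of the group's range; chance alone marks about 1 in 20 groups. Labelled knockout replicate 2 was the lowest of its group for Pdgfrb (46.0 CPM), Pdgfa (35.6 CPM) and Tagln (30.0 CPM). Wild-type adenine replicate 5 was the lowest for Pdgfa (42.4 CPM), and wild-type adenine replicate 3 for Tagln (27.5 CPM). None of the calls of these genes in labelled knockout against wild type was lost when any 1 library was left out.

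The difference between the effect of the knockout label and that of the antibody passed its test for Pdgfrb (1.59), Pdgfra (1.31), Tagln (1.00) and Pdgfa (0.65), on the log2 scale. The first 3 were higher in the labelled knockout and lower with the antibody, each against its own control.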

How the results depend on the processing

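Counts of all genes called and of members called stayed within 1.5 times under each alternative run. Members called with 1 library left out were 8 to 9, 7, 7, 5 to 6 and 4 to 5 in wild type against chow, labelled knockout against wild type, labelled knockout against chow, antibody against IgG and the difference of effects. Single genes turned direction as follows, on the log2 scale. With library size alone (chosen after seeing the data), wild type against chow gave Pdgfrb 0.43, Acta2 0.16, Tagln 0.10 and Cnn1 0.35, labelled knockout against wild type gave Acta2 -0.043, labelled knockout against chow gave Acta2 0.12, Tagln 0.25, Cnn1 0.38 and Ccn1 0.42, and Myh11 was -0.11 with the antibody and 0.19 in the difference of effects. With upper-quartile scaling the values were 0.01 (Pdgfrb, wild type against chow), -0.029 (Acta2, labelled knockout against wild type), 0.014 (Ccn1, labelled knockout against chow), -0.025 (Myh11, antibody) and 0.11 (Myh11, difference). With the length offset they were -0.005 (Myh11, wild type against chow), 0.28 (Cnn1, antibody), 0.002 (Ccn1, antibody) and -0.28 (Cnn1, difference). The cause was not tested. With 1 library left out, these genes spanned 0: Myh11 -0.047 to 0.11 (wild type against chow) and -0.15 to 0.053 (difference), Acta2 -0.027 to 0.077 (labelled knockout against wild type), Cnn1 -0.43 to 0.092 (labelled knockout against chow), Ccn1 -0.16 to 0.16 and Ccn2 -0.30 to 0.04 (antibody). So did the log2 ratios of Ccn1 to Ccn2 (-0.16 to 0.19) and Pdgfa to Pdgfra (-0.30 to 0.041) with the antibody, Pdgfrb to Pdgfra (-0.06 to 0.037) in labelled knockout against wild type and Tagln to Acta2 (-0.081 to 0.004) in wild type against chow. The difference for Ccn1 passed with RLE scaling (-0.68, adjusted p = 0.0475, edgeR) and with DESeq2 (-0.68, adjusted p = 0.0490).

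Replicate numbers did not pair the libraries: deviations of same-numbered libraries correlated at -0.22 to 0.11. With the number as a replicate block, members called stayed at 8, 7, 7, 5 and 4, genes called were 14100, 7522, 13241, 8270 and 5697, and Myh11 turned to -0.078 in wild type against chow. Cnn1, at 9 to 35 reads per library, is the gene whose precision depth limits most.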
